A study of Mus musculus with 7 samples.

Results

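Endothelial identity transcription factors were followed through the cells of the mouse brain microvasculature. They are 9 genes, chosen by symbol among the 32285 genes of the deposited tables: Sox17, Sox18 and Sox7, Erg and Fli1, Foxq1, Foxf2 and Foxc1, and Nr2f2. All 9 were found, each under 1 gene identifier, and all 9 passed the low-count filter in each comparison between cell classes. The study tested a way to isolate brain microvessels, and the single-cell libraries used here came from cells caught on beads coated with an antibody to CD31, an endothelial surface protein. A single hemisphere was used, without cerebellum, brain stem and olfactory bulbs. The mice were untreated C57Bl6 of 2 ages: 3 libraries at 12 months, prepared with single indexes, and 4 libraries at 3 months, prepared with dual indexes. All libraries used the same 10x 3' chemistry. The ages also differ in index type, in the Cell Ranger version that made the counts and in depth, and these cannot be told apart from age. The labels do not say that each library is a separate animal, so p-values measure the spread between these libraries, except where stated.

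Sox17, Sox18 and Sox7 form the SOXF group, HMG-box factors that act together in vessel growth, and Sox17 is best known for its role in arterial endothelium. Erg and Fli1 are ETS factors, which bind DNA around a GGAA core and keep many endothelial genes active. Fli1 is also made by blood-lineage cells. Foxq1, Foxf2 and Foxc1 are forkhead factors that stand side by side in the genome. Foxf2 and Foxc1 are known for their part in brain pericytes and the blood-brain barrier, and Foxq1 is enriched in brain endothelium. Nr2f2, also called COUP-TFII, is an orphan nuclear receptor that holds venous identity by keeping Notch signalling low.

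On GRCm38 the members lie on 7 chromosomes: Sox17 at chr1:4490931-4497354, Sox18 at chr2:181669836-181671640, Nr2f2 at chr7:70351944-70366735, Fli1 at chr9:32422204-32542861 and Erg at chr16:95359169-95586593, all on the minus strand, and Sox7 at chr14:63943673-63950732 on the plus strand. The 3 forkhead genes lie on the plus strand of chromosome 13, at 31556134-31560976 (Foxq1), 31625816-31631403 (Foxf2) and 31806633-31812476 (Foxc1). The gaps between them are 64839 and 175229 bases, with 0 protein-coding genes in either gap. Sox17, Fli1, Foxq1 and Nr2f2 each overlap another annotated gene on the opposite strand that the tables also count. How strand was treated in counting is not stated in these sources. RefSeq promoters of GRCm38.p6 were matched for 4 members, and 3 of them are printed because these genes are the ones also found in mural cells. Each is the 250 bases before the RefSeq start, which for Foxc1 and Nr2f2 differs by a few bases from the gene coordinates given above, 5′ to 3′ on the gene's strand, with GGAA or its reverse complement TTCC in capitals.
Foxf2, chr13:31625566-31625815, plus strand: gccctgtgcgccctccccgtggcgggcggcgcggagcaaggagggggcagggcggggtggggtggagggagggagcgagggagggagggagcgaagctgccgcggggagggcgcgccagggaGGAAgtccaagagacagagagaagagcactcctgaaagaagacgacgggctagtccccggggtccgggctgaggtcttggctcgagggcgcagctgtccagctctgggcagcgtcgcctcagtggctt
Foxc1, chr13:31806396-31806645, plus strand: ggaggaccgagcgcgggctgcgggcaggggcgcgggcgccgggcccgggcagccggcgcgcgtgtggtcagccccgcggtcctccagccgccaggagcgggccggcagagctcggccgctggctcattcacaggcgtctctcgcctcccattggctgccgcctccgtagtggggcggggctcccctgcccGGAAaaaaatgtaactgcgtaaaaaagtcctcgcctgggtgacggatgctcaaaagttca
Nr2f2, chr7:70366747-70366996, minus strand: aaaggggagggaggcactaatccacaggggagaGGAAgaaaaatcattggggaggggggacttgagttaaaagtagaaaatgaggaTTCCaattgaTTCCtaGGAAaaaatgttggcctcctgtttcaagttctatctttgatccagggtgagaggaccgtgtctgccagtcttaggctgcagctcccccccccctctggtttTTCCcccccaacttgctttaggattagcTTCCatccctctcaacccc
The Foxf2 and Foxc1 windows were 71.6% and 70.8% G or C, against a median of 52.4% over 32851 promoters, and the Nr2f2 window was 50.0%. GGAA or TTCC occurred once in each of the forkhead windows and 6 times in the Nr2f2 window, against a median of 3. This short motif is present in 93.4% of all promoters of that length. The GC box GGGCGG, or its reverse complement, was found in the Foxf2 and Foxc1 windows and in 32.7% of all promoters. The SOX core ACAAT (27.7% of all promoters), the forkhead core TGTTTA (12.0%) and the nuclear receptor motif AGGTCA (14.0%), read on both strands, were not in these 3 windows.

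The 7 libraries held 8706961 to 44861008 UMIs, which are counts of single captured RNA molecules, and 37176 of 43091 cell barcodes were kept. Pairs of libraries shared 1 to 24 barcodes. Cells were clustered without the 9 members and classes were named from marker genes, so "arterial" and the other names below stand for clusters that resemble those cells. The endothelial classes used numbered 6: arterial (2114 cells), arterial-side (4438), capillary (15279), venous-side (3873), venous (2019) and Plvap-positive (1300). Leading genes of the arterial-side cluster included Gkn3, Bmx and Sema3g, and those of the venous-side cluster Cyp2e1, F5, Lcn2 and Slc38a5. The arterial-side cluster scored 1.89 for arterial-side capillary and 1.64 for arterial markers (mean log2 against the other clusters). The venous-side cluster scored 1.60 for venous-side capillary and 1.49 for venous markers. An interferon-responding cluster (673 cells) and unnamed endothelial clusters (331, 103 and 101 cells) were left out of the comparisons. Plvap encodes the diaphragm protein of fenestrated endothelium. Mural cells, which wrap the endothelium, were pericytes (807) and smooth muscle cells (1216). The median number of UMIs per cell ranged over the libraries from 890 to 4033 in capillary cells and from 1893 to 15046 in venous cells. Levels are given as CPM, the UMIs of a gene per 1000000 UMIs of the class in a library. Differences are log2 ratios with their standard error, from edgeR's quasi-likelihood test across all genes with the library as a term, and a call means an adjusted p under 0.05. In these sums, fewer cells making a gene and less RNA per cell cannot be told apart.

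The library of the 3-month replicate 1 stood apart from the rest. Among the 8 classes it was the lowest of the 7 libraries in 8 for Sox7 and Foxc1, in 7 for Erg and Nr2f2 and in 6 for Fli1. It was the highest in 7 classes for Sox17 and in 6 for Sox18. The 12-month replicate 1, with the fewest UMIs, was the lowest in 6 classes for Sox18. The 3-month replicate 2 was the highest in 7 classes for Foxc1 and the lowest in 6 for Sox17. The 12-month replicate 3 was the highest in 6 classes for Foxf2. Comparisons between classes were made with the library as a term, so that each class was set against others of the same library.

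**Figure D1:**
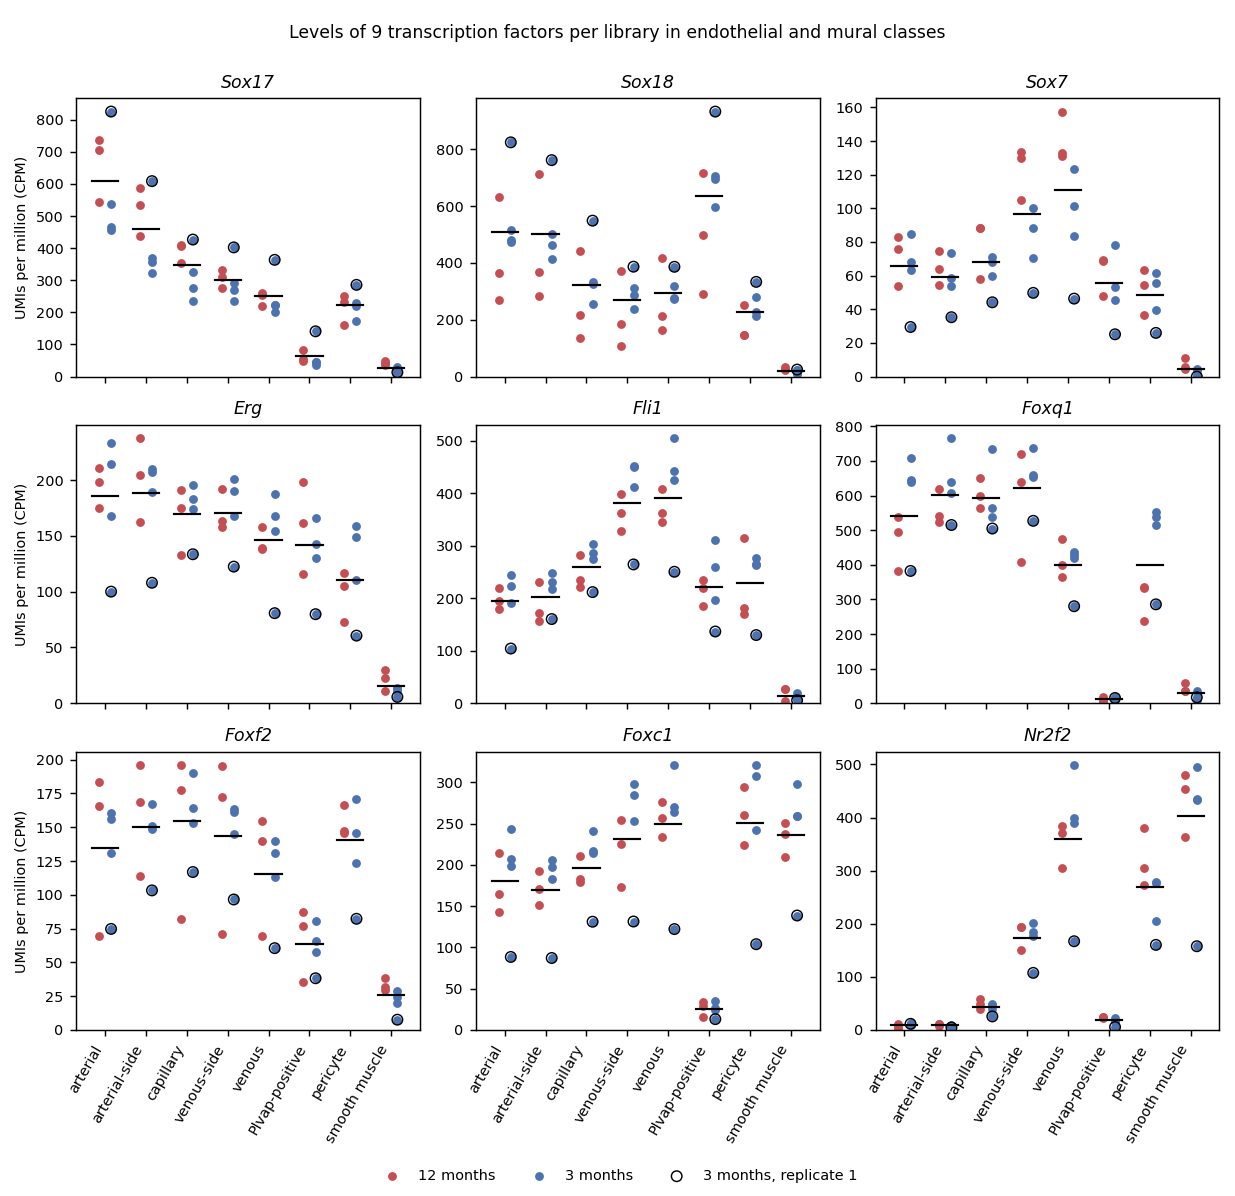
Level of each of the 9 genes (CPM) in 6 endothelial and 2 mural classes, 1 point per library, coloured by age. Sox17 points are highest in arterial cells (455 to 825 CPM), Nr2f2 points climb from arterial (2.57 to 12.5) to venous cells (167 to 499), and Foxq1 is near 0 in Plvap-positive cells (6.83 to 17.1).

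Sox17, the SOXF member tied to arteries, stepped down from artery to vein. Its lowest, median and highest library stood at 455, 544 and 825 CPM in arterial cells and at 322, 437 and 609 CPM in arterial-side cells. Capillary cells had 234, 352 and 427 CPM, venous-side cells 234, 291 and 402 CPM, and venous cells 201, 223 and 364 CPM. Arterial and capillary libraries did not overlap, while neighbouring classes did, with the arterial value above the capillary value in 7 of 7 libraries. Sox17 was 1.75-fold higher in arterial than in capillary cells (log2 0.81 ± 0.09, adjusted p = 6.7e-11) and 1.31-fold higher in arterial-side cells (log2 0.39 ± 0.09, adjusted p = 0.00043). It was also higher in arterial than in arterial-side cells (log2 0.41 ± 0.09, adjusted p = 0.00028), the only member called between these neighbours, where 23% of all genes tested were called (12.5% higher in arterial cells). Toward the vein it was lower in venous than in capillary cells (log2 -0.42 ± 0.09, adjusted p = 8.3e-05). Neither the venous-side cells against capillary cells (log2 -0.20 ± 0.09, adjusted p = 0.088) nor the venous cells against venous-side cells (log2 -0.22, adjusted p = 0.055) passed the threshold. Without the 3-month replicate 1 both were called (log2 -0.22, adjusted p = 0.021, and log2 -0.25, adjusted p = 0.0077). Without the 12-month replicate 1 the venous against venous-side difference was called (log2 -0.25, adjusted p = 0.037). From artery to vein the whole difference was 2.34-fold (log2 -1.23 ± 0.09).

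Sox18, a SOXF factor active in blood and lymphatic endothelium, had an arterial and arterial-side plateau and then a lower level. Its lowest, median and highest libraries were 269.9, 482 and 824 CPM in arterial cells, 283, 465 and 762 CPM in arterial-side cells and 137, 327 and 549 CPM in capillary cells. Venous-side cells had 108, 288 and 387 CPM and venous cells 164, 278 and 418 CPM. The classes overlapped because libraries differed widely, but arterial cells were above capillary cells in 7 of 7 libraries. Sox18 was 1.61-fold higher in arterial (log2 0.68 ± 0.07, adjusted p = 4.6e-11) and 1.58-fold higher in arterial-side than in capillary cells (log2 0.66 ± 0.07, adjusted p = 4.1e-10). Arterial and arterial-side cells did not differ beyond their spread (adjusted p = 0.88). Sox18 was lower in venous-side than in capillary cells (log2 -0.24 ± 0.07, adjusted p = 0.0096), narrowly not called without the 3-month replicate 1 (log2 -0.21, adjusted p = 0.0501). The difference between venous and capillary cells missed the threshold (log2 -0.05, adjusted p = 0.62).

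Sox7, the remaining SOXF gene, ran the other way. It stood at 29.5, 67.9 and 84.9 CPM (lowest, median and highest library) in arterial cells, at 44.2, 67.9 and 88.4 CPM in capillary cells and at 46.3, 123 and 157 CPM in venous cells. The venous-side cluster had 49.8, 100.0 and 133 CPM and the arterial-side cluster 35.3, 58.7 and 74.6 CPM. The ranges overlapped, and venous cells were above arterial cells within 7 of 7 libraries. Sox7 was 1.60-fold higher in venous (log2 0.68 ± 0.07, adjusted p = 6.7e-11) and 1.34-fold higher in venous-side than in capillary cells (log2 0.43 ± 0.07, adjusted p = 7.9e-06). Its difference between arterial and capillary cells was not called (log2 -0.07 ± 0.09, adjusted p = 0.51), and the arterial-side cells were slightly lower (log2 -0.21 ± 0.08, adjusted p = 0.046), which was not called without the 12-month replicate 2 or 3 or the 3-month replicate 1, 3 or 4 (adjusted p from 0.058 to 0.17). The SOXF genes thus had opposite slopes: from artery to vein Sox17 and Sox18 fell (log2 -1.23 ± 0.09 and -0.73 ± 0.07) and Sox7 rose (log2 0.75 ± 0.09).

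Erg, an ETS factor of endothelium, was slightly lower in venous than in arterial cells. The difference was 1.22-fold (log2 -0.29 ± 0.07, adjusted p = 0.00043), with arterial cells above venous cells in 7 of 7 libraries. The lowest, median and highest libraries of Erg were 100.0, 198 and 233 CPM in arterial, 108, 205 and 238 in arterial-side, 133, 175 and 196 in capillary, 122, 168 and 201 in venous-side and 80.7, 154 and 188 CPM in venous cells. All 5 ranges overlapped. No arterial, arterial-side or venous-side difference from capillary cells was called, and venous cells were 1.13-fold lower (log2 -0.17 ± 0.06, adjusted p = 0.022). Without the 3-month replicate 1 this venous difference from capillary cells was not called (log2 -0.11, adjusted p = 0.15). Nor was it without the 12-month replicate 2 or the 3-month replicate 3 (adjusted p = 0.054 and 0.063). Without the 3-month replicate 1 the arterial and arterial-side cells were called higher than capillary cells (log2 0.18, adjusted p = 0.022, and log2 0.17, adjusted p = 0.036). When all sums were thinned to the same number of UMIs, the venous difference from capillary cells turned around (log2 0.26). So did the venous difference from arterial cells (log2 0.19).

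Fli1, the other ETS factor, rose toward the vein. Libraries ran from 104 to 244 CPM in arterial cells (median 194), from 156 to 248 in arterial-side cells (218) and from 212 to 303 in capillary cells (275). They ran from 264 to 451 CPM in venous-side cells (399) and from 250.4 to 505 in venous cells (409). Venous cells were above arterial cells in 7 of 7 libraries and the groups did not overlap. Against capillary cells Fli1 was 1.35-fold lower in arterial (log2 -0.44 ± 0.07, adjusted p = 5.6e-07), 1.28-fold lower in arterial-side (log2 -0.36 ± 0.07, adjusted p = 4.1e-05), 1.45-fold higher in venous-side (log2 0.53 ± 0.06, adjusted p = 4.1e-09) and 1.54-fold higher in venous cells (log2 0.63 ± 0.06, adjusted p = 1.3e-11). Venous and venous-side cells did not differ beyond their spread (log2 0.09, adjusted p = 0.31). Microglia, the immune cells of the brain, held Fli1 at 133, 176 and 205 CPM, while Erg averaged 3.67 CPM there.

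Foxq1, the barrier-enriched forkhead, was level from artery to the venous side and lower in veins. Its lowest, median and highest libraries were 382, 539 and 709.6 CPM in arterial, 515, 608 and 765 in arterial-side, 505, 564 and 736 in capillary and 407, 654 and 738 CPM in venous-side cells. Venous cells had 280.3, 419 and 474 CPM, below every capillary library. The arterial, arterial-side and venous-side differences from capillary cells were not called (adjusted p = 0.13, 0.93 and 0.70), and venous cells were 1.44-fold lower (log2 -0.53 ± 0.08, adjusted p = 1.3e-07).

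Foxf2 was lower in arterial and venous cells than in capillary cells, by a small margin. Libraries ranged from 69.4 to 183 CPM in arterial (median 156), 103 to 196 in arterial-side (151), 81.8 to 196 in capillary (165), 71.0 to 195 in venous-side (161) and 60.5 to 155 CPM in venous cells (131). The ranges lay over each other. Foxf2 was 1.16-fold lower in arterial (log2 -0.22 ± 0.06, adjusted p = 0.0054, and log2 -0.18, adjusted p = 0.05002 without the 3-month replicate 3, which was not called) and 1.32-fold lower in venous than in capillary cells (log2 -0.40 ± 0.06, adjusted p = 4.5e-07). Arterial-side and venous-side cells were not called (adjusted p = 0.45 and 0.13).

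Foxc1 rose gently toward the vein. Its lowest, median and highest libraries were 88.4, 199 and 244 CPM in arterial, 87.2, 183 and 206 in arterial-side, 131, 211 and 241 in capillary, 131, 253 and 298 in venous-side and 122, 264 and 321 CPM in venous cells. The ranges overlapped, and venous cells were above arterial cells in 7 of 7 libraries. Foxc1 was 1.29-fold higher in venous (log2 0.36 ± 0.06, adjusted p = 6.4e-07) and 1.16-fold higher in venous-side than in capillary cells (log2 0.22 ± 0.06, adjusted p = 0.0033). It was 1.18-fold lower in arterial-side (log2 -0.24 ± 0.06, adjusted p = 0.0016) and 1.11-fold lower in arterial cells (log2 -0.15 ± 0.06, adjusted p = 0.044), a difference whose sign turned when the libraries were clustered without integration (log2 0.0078). The arterial difference of Foxc1 was not called without the 12-month replicate 1 or 2 or the 3-month replicate 1, 3 or 4 (adjusted p from 0.081 to 0.18).

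Nr2f2, the venous nuclear receptor, had the steepest slope of the 9. Its lowest, median and highest libraries were 2.57, 11.1 and 12.5 CPM in arterial cells and 4.67, 8.37 and 12.1 CPM in arterial-side cells. Capillary cells had 25.6, 46.5 and 58.1 CPM, venous-side cells 107, 184 and 202 CPM and venous cells 167, 385 and 499 CPM. Arterial and arterial-side cells overlapped, as did venous and venous-side cells, and every other neighbour was separate. Against capillary cells Nr2f2 was 4.69-fold lower in arterial (log2 -2.23 ± 0.16, adjusted p = 4.1e-17) and 5.02-fold lower in arterial-side cells (log2 -2.33 ± 0.14, adjusted p = 5.6e-19). It was 4.03-fold higher in venous-side (log2 2.01 ± 0.08, adjusted p = 9.9e-24) and 8.57-fold higher in venous cells (log2 3.10 ± 0.08, adjusted p = 1.6e-32). Venous cells also stood 2.13-fold above the venous-side cluster (log2 1.09 ± 0.08, adjusted p = 1e-16). The distance from artery to vein was 40.2-fold (log2 5.33 ± 0.13). The arterial level was low but above that of microglia on average (8.96 ± 3.88 against 1.88 CPM, SD and mean over 7 libraries). Nr2f2 was among the leading genes of the venous-side cluster, although neither clustering nor naming used it.

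Across these comparisons, 2 members were higher and 4 lower in arterial than in capillary cells, where 44.8% of all genes were called (22.4% higher and 22.4% lower). Without the 3-month replicate 3, 2 rather than 4 were lower, Foxf2 and Foxc1 no longer being called. In arterial-side cells the counts were 2 and 4 (25.9% of all genes called, 13.3% higher and 12.6% lower). In venous-side cells they were 4 and 1 (24.8% called, 12.3% and 12.5%), and in venous cells 4 and 4 (50.4% called, 25.1% and 25.2%). Venous against arterial cells gave 4 higher and 5 lower (42.2% of all genes called, 21.4% and 20.8%), and venous against venous-side cells 4 higher and 3 lower (29.4%, 16% and 13.4%). The 4 higher became 2 when the 12-month replicate 1, 2 or 3 or the 3-month replicate 2 was left out. The lost calls were Foxc1 (log2 0.15, adjusted p = 0.048 with all libraries and 0.081 to 0.15 without one of these) and Sox18 (log2 0.20, adjusted p = 0.040 and then 0.054 to 0.12). Of the 3 lower there, Erg was not called without the 12-month replicate 2 or 3 or the 3-month replicate 1, 2 or 4 (adjusted p from 0.051 to 0.11). Of the 5 lower in venous than in arterial cells, Foxf2 was not called without the 12-month replicate 2 or 3 or the 3-month replicate 4 (adjusted p from 0.064 to 0.16). The median log2 difference of the members was -0.15 in arterial and -0.05 in venous cells, against -0.02 and -0.01 over all genes. Pericyte and smooth muscle marker sums stayed low in endothelial classes, at means of 114 and 81.1 CPM in arterial, 89.9 and 44.8 CPM in capillary and 41.1 and 17.4 CPM in venous cells. Their part in the differences was not tested.

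**Figure D2:**
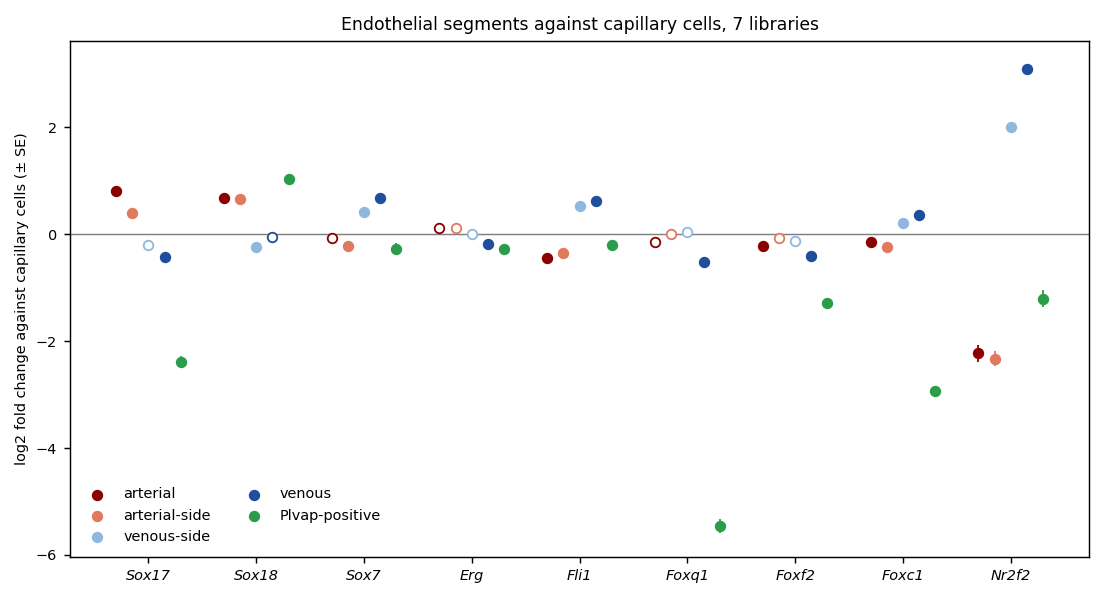
Log2 difference of each gene from capillary cells in the other 5 endothelial classes, with standard error, from the joint fit over 7 libraries. Sox17 falls from 0.81 in arterial to -0.42 in venous cells, Nr2f2 rises from -2.23 to 3.10, and Foxq1, Foxc1 and Sox17 are far below 0 in Plvap-positive cells.

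Plvap-positive cells, the class with the fenestration gene, had a different set of levels. Foxq1 libraries were 6.83, 13.6 and 17.1 CPM (lowest, median, highest) there against 505 to 736 CPM in capillary cells, which is 44.1-fold lower (log2 -5.46 ± 0.13, adjusted p = 1.2e-35). That range overlapped the one in microglia, where the mean was 8.31 CPM. Foxc1 libraries were 13.1, 27.0 and 34.7 CPM, 7.62-fold lower than in capillary cells (log2 -2.93 ± 0.10, adjusted p = 1.4e-30). Sox17 libraries were 37.5, 47.8 and 141 CPM, 5.25-fold lower (log2 -2.39 ± 0.12, adjusted p = 2.7e-23), and the highest of them was the 3-month replicate 1. For Foxq1, Foxc1, Sox17 and Nr2f2 the Plvap-positive and capillary libraries did not overlap.

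Foxf2 and Nr2f2 were lower in Plvap-positive cells too. Foxf2 had 35.8, 65.7 and 87.6 CPM (log2 -1.29 ± 0.08, adjusted p = 1.4e-18), and Nr2f2 had 5.47, 21.9 and 24.7 CPM (log2 -1.20 ± 0.17, adjusted p = 2e-08). Smaller differences were called for Sox7 (25.1, 53.5 and 77.9 CPM, log2 -0.28 ± 0.11, adjusted p = 0.025), Erg (79.8, 142 and 198 CPM, log2 -0.27 ± 0.08, adjusted p = 0.0026) and Fli1 (137, 220.2 and 312 CPM, log2 -0.20 ± 0.07, adjusted p = 0.018). Sox7 and Fli1 each lost the call when any of 4 libraries was left out (adjusted p from 0.061 to 0.11 for Sox7 and from 0.060 to 0.21 for Fli1). Erg turned around after thinning (log2 0.08). Sox18 was the exception, at 292, 697 and 933 CPM, 2.06-fold above capillary cells (log2 1.04 ± 0.08, adjusted p = 8.3e-17) and higher in 7 of 7 libraries. The count was therefore 1 member higher and 8 lower, where 54% of all genes were called (26% higher and 28% lower), and the members' median log2 was -1.20 against -0.05 over all genes. The 6 endothelial markers summed to 10268 ± 2112 CPM in Plvap-positive and 16502 ± 1768 CPM in capillary cells (SD, n = 7), a difference whose part in these results was not tested.

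The share of cells with at least 1 UMI was read as a second view of the levels. With each cell thinned to 1000 UMIs, Nr2f2 was seen in 0.778% of arterial, 0.813% of arterial-side, 4.54% of capillary, 14.9% of venous-side and 27.7% of venous cells, as means over libraries, against 0.261% of microglia. Without thinning the values were 5.01% of arterial, 9.58% of capillary and 74.7% of venous cells. Foxq1 was seen in 40.8% of capillary and 0.641% of Plvap-positive cells, against 1.03% of microglia. The libraries of Plvap-positive cells (0 to 1.98%) and microglia (0 to 2.56%) overlapped. With each cell thinned to 2000 UMIs instead, the mean was higher in Plvap-positive cells than in microglia. Before thinning, Foxq1 was seen in 64.4% of capillary and 5.08% of Plvap-positive cells, against 1.76% of microglia. Sox17 was seen in 44.1% of arterial, 27.6% of capillary and 22.8% of venous cells (0.878% of microglia). Cells under 1000 UMIs could not be thinned and were left out, 1522 capillary cells at 12 months and 219 at 3 months among them.

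**Figure D3:**
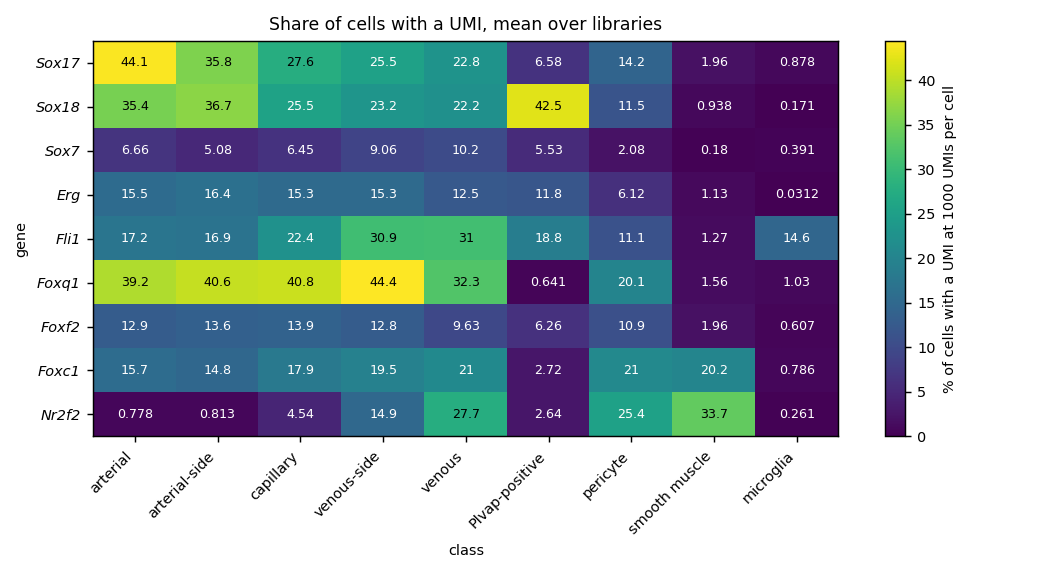
Percent of cells with at least 1 UMI of each gene after thinning each cell to 1000 UMIs, as a colour grid of genes (rows) by classes (columns) with the mean over libraries printed in each square, and microglia as a background class. Nr2f2 goes from 0.778% in arterial to 27.7% in venous cells, and Fli1 is seen in 14.6% of microglia.

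Mural cells were compared with the endothelium beside them. In smooth muscle cells, 7 members were lower and 2 higher than in arterial cells, where 62.4% of all genes were called (32.1% lower and 30.3% higher). Foxc1 stood at 139, 250.5 and 298 CPM in smooth muscle (lowest, median, highest) and was 1.52-fold above arterial cells (log2 0.61 ± 0.09, adjusted p = 6.2e-06). Nr2f2 stood at 158, 434 and 495 CPM, 51.2-fold above arterial cells (log2 5.68 ± 0.17, adjusted p = 2.5e-15), with no overlap. Foxf2 kept 7.60, 28.5 and 38.4 CPM, 4.66-fold below arterial cells (log2 -2.22 ± 0.13, adjusted p = 3.7e-11).

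The other 6 members were low in smooth muscle. Sox17 had 8.55, 29.4 and 47.4 CPM (log2 -4.33 ± 0.18 against arterial cells, adjusted p = 3.3e-13) and Foxq1 10.7, 34.2 and 59.8 CPM (log2 -4.23 ± 0.23, adjusted p = 1.2e-11). Sox18, Sox7, Erg and Fli1 had log2 differences of -4.41 ± 0.19, -3.95 ± 0.21, -3.45 ± 0.16 and -3.46 ± 0.18. The 6 endothelial markers, all 6 detected, summed to 815 ± 407 CPM in smooth muscle, which is 4.83 ± 2.13% of the capillary level (SD, n = 7). Sox17 in smooth muscle was at 7.79% of the capillary level, Foxq1 at 5.01% and Foxf2 at 17.8 ± 9.67%, whereas Foxc1 was at 120 ± 13.7%.

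Pericytes carried much endothelial RNA. The same 6 markers summed to 9759 ± 1876 CPM, 59.9 ± 13.7% of the capillary level, with libraries from 35.6 to 79.4%. Against that value, Sox17 stood at 65.5 ± 14.0%, Erg at 64.2 ± 14.7%, Foxq1 at 68.0 ± 23.4% and Sox7 at 72.3 ± 22.0% of the capillary level. Sox18 was at 83.5 ± 47.8%, with libraries from 33.4 to 184%. Fli1 was at 88.1 ± 25.0%, Foxf2 at 96.6 ± 37.3%, Foxc1 at 126 ± 26.8% and Nr2f2 at 626 ± 174%. In levels, pericyte libraries had 160.2, 277 and 381 CPM of Nr2f2 (lowest, median, highest), 104, 261 and 322 of Foxc1, 82.3, 146 and 171 of Foxf2 and 160.1, 228 and 286 of Sox17. All cells included, 5 members were lower and 2 higher than in capillary cells, where 27.2% of all genes were called (13.1% lower and 14.1% higher). The higher ones were Nr2f2 (log2 2.62 ± 0.12, adjusted p = 3.1e-16) and Foxc1 (log2 0.28 ± 0.10, adjusted p = 0.038). Without the 12-month replicate 1 or 2 or the 3-month replicate 2, 3 or 4 Foxc1 was not called (adjusted p from 0.092 to 0.23).

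Pericytes with at most 0.1% of their UMIs from the 6 markers were then compared alone, a selection added after seeing the data that left 5 libraries with at least 20 such cells. Their marker sum was 1.51 ± 0.617% of the capillary level, a low value that the selection itself set. Sox17 stood at 3.70%, Sox18 at 3.72%, Sox7 at 5.79%, Erg at 2.48%, Foxq1 at 3.87% and Fli1 at 8.54% of the capillary level in them. Their log2 differences from capillary cells ran from -5.69 ± 0.47 (Erg) to -3.80 ± 0.30 (Fli1), and all 6 were called, where 33.2% of all genes were. Because the selection took out endothelial RNA, these calls are not a separate test of the 6 genes in pericytes. Foxf2 was at 62.1 ± 27.1% of the capillary level (log2 -0.76 ± 0.20, adjusted p = 0.00094) and Foxc1 at 128 ± 20.4% (log2 0.11 ± 0.17, adjusted p = 0.68, no longer called). Nr2f2 was at 1034 ± 287% (log2 3.14 ± 0.16, called). This fit had 12 sums and took its spread almost wholly from all genes together. Its p-values therefore do not measure each gene's spread between these libraries. Of the 9 genes, Nr2f2, Foxc1 and Foxf2 stood far above the percentage of the marker sum, which the selection had set. The other 6 were at 2.48 to 8.54% of the capillary level in these pericytes.

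Between the mural types, all 7 of Sox17, Sox18, Sox7, Erg, Fli1, Foxq1 and Foxf2 were higher in pericytes than in smooth muscle with all cells included, and 50.5% of all genes were called (26% higher and 24.5% lower). Nr2f2 was 1.82-fold lower in pericytes (log2 -0.86 ± 0.12, adjusted p = 2.8e-06), and Foxc1 was not called (log2 -0.20, adjusted p = 0.12). In the cells low in endothelial markers, Foxf2 was still higher in pericytes (log2 2.12 ± 0.29, adjusted p = 3.7e-10). There Nr2f2 was no longer called (log2 -0.24 ± 0.13, adjusted p = 0.15), and the 6 endothelial members did not pass the low-count filter. This fit also had 12 sums and took its spread largely from all genes together. Its p-values do not measure each gene's spread between these libraries.

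**Figure D4:**
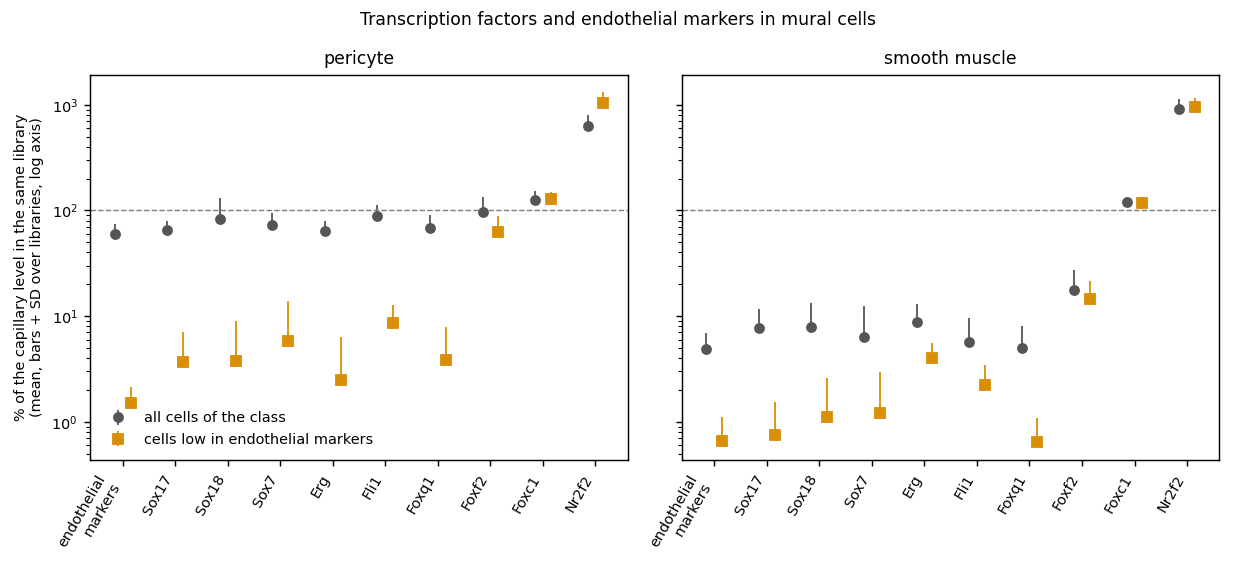
Level of each gene and of the 6 summed endothelial markers in pericytes and smooth muscle cells, as percent of the capillary level on a log axis, for all cells and for cells with at most 0.1% endothelial marker UMIs. Points are means over libraries and bars reach up by the SD. Nr2f2, Foxc1 and Foxf2 stay high in the selected pericytes (1034%, 128% and 62.1%) where the marker sum, set by the selection, is 1.51%.

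The 12-month libraries were compared with the 3-month libraries class by class, and edgeR called 0 of the 9 members in any class. DESeq2 called 1, Sox7 in the venous-side cluster (log2 0.77 ± 0.23, adjusted p = 0.034). All genes gave calls of 4.56% in capillary, 0.481% in arterial, 1.77% in arterial-side, 2.48% in venous-side, 2.67% in venous, 0.364% in Plvap-positive cells, 1.96% in pericytes and 0.345% in smooth muscle. At an unadjusted p under 0.05 the members numbered 2 in capillary cells (20.7% of all genes), 0 in arterial (7.64%), 1 in arterial-side (10.8%), 1 in venous-side (13.1%), 1 in venous (12.7%) and 0 in Plvap-positive cells (6.38%). They numbered 3 in pericytes (12.6% of all genes) and 6 of 8 tested in smooth muscle (8.24%). The 3 capillary clusters held cells of both ages in different shares, with 3349, 1192 and 2690 cells at 12 months and 2642, 3525 and 1881 at 3 months in clusters 0, 1 and 2.

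In venous and venous-side cells the ages did not overlap for Sox7. The share of all genes without overlap was not counted, so this shows nothing particular to Sox7. Sox7 had 131, 157 and 133 CPM in the 12-month venous libraries and 46.3, 123, 102 and 83.7 CPM in the 3-month ones. The log2 difference was 0.78 ± 0.25 (adjusted p = 0.16). In the venous-side cluster the values were 105, 133 and 129.6 CPM against 49.8, 100.0, 88.1 and 70.5 CPM (log2 0.76 ± 0.22, adjusted p = 0.098). Without the 3-month replicate 2, the highest 3-month library for Sox7, both were called (log2 0.97, adjusted p = 0.041, and log2 0.93, adjusted p = 0.030). Without the 3-month replicate 1, the lowest for Sox7, both were smaller and not called (log2 0.60, adjusted p = 0.062, and log2 0.62, adjusted p = 0.051). In capillary cells the difference was 0.48 ± 0.21 (adjusted p = 0.20).

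Sox17 depended on the library that stood apart. In capillary cells the 12-month libraries had 352, 406 and 411 CPM and the 3-month ones 427, 234, 276 and 326 CPM, so the first 3-month library lay above all the others and the rest below. The log2 difference was 0.42 ± 0.18 (adjusted p = 0.22) with all libraries and 0.57 ± 0.14 (adjusted p = 0.024) without the 3-month replicate 1. In arterial-side cells Sox17 was called without it too (log2 0.68 ± 0.15, adjusted p = 0.019), and in arterial cells it was not (log2 0.52 ± 0.17, adjusted p = 0.24). Foxq1 in pericytes had 337, 332 and 238 CPM at 12 months and 286, 552, 537 and 513 CPM at 3 months. With all libraries it was not called (log2 -0.69, adjusted p = 0.22), and without the 3-month replicate 1 it was (log2 -0.83 ± 0.20, adjusted p = 0.018). The endothelial markers in pericytes summed to 8676 ± 1754 CPM at 12 months (n = 3) and 10572 ± 1714 CPM at 3 months (SD, n = 4), and their part in the Foxq1 value was not tested.

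In smooth muscle, Sox17 had 41.1, 47.4 and 35.9 CPM at 12 months against 13.3, 8.55, 29.4 and 16.5 CPM at 3 months, without overlap (log2 1.32 ± 0.33, adjusted p = 0.095). Sox7, Foxq1 and Foxf2 in smooth muscle and Nr2f2 in Plvap-positive cells did not overlap between ages either. The share of all genes without overlap was not counted here as well. Without the 3-month replicate 3, Sox17 (log2 1.75, adjusted p = 0.019) and Foxq1 (log2 1.69, adjusted p = 0.025) were called. Sox18, Erg, Fli1, Foxq1 and Foxf2 had log2 differences of 0.91, 1.00, 0.87, 1.14 and 0.67, whereas Foxc1 and Nr2f2 had -0.09 and 0.17. The endothelial markers in smooth muscle summed to 1206 ± 218 CPM at 12 months (SD, n = 3) and 522 ± 181 CPM at 3 months (n = 4), and their part in these differences was not tested. The age difference itself was not called as different from capillary cells for any member, in arterial cells (2.94% of all genes called) or venous cells (9.34%). Foxq1 came nearest (log2 -0.41 ± 0.13, adjusted p = 0.069), and it was called without the 3-month replicate 1 (adjusted p = 0.036) and by DESeq2 (adjusted p = 0.018). In venous cells Sox17 was called without the 12-month replicate 1 (log2 -0.45, adjusted p = 0.023). When the libraries were clustered without integration, Nr2f2 (log2 -1.07 ± 0.22, adjusted p = 0.0024) and Foxq1 (log2 0.45 ± 0.15, adjusted p = 0.044) were called there, against log2 -0.19 (adjusted p = 0.53) and log2 0.04 (adjusted p = 0.89) with integration. Nr2f2 was then also called between ages in capillary cells (log2 0.83 ± 0.17, adjusted p = 0.017).

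**Figure D5:**
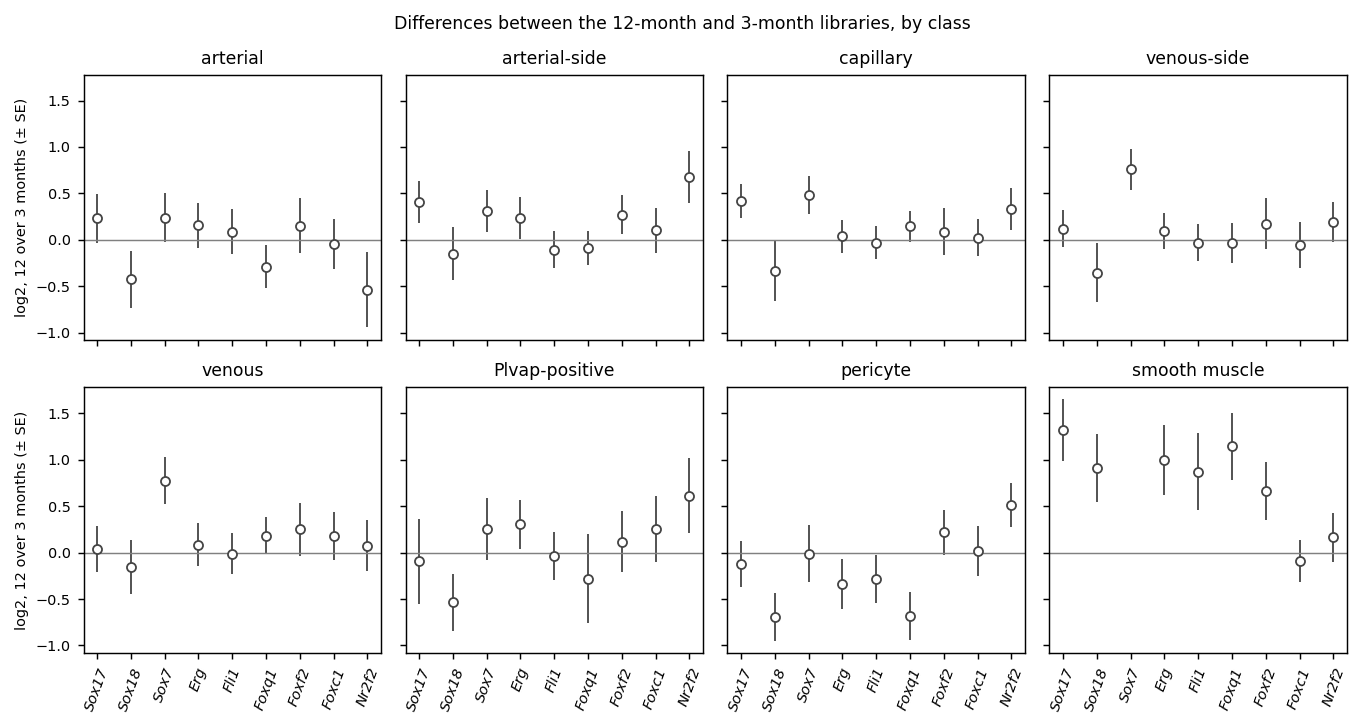
Log2 difference of each gene between the 12-month and 3-month libraries, with standard error, in 1 panel per class. Open points mark values that were not called, which holds for every gene. Sox7 lies at 0.76 in venous-side and 0.78 in venous cells, and 6 genes lie between 0.67 and 1.32 in smooth muscle.

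Other transcription factors were counted from lists that are not independent of earlier results on these libraries. Of 20 tested endothelial factors outside the 9, 9 were higher and 7 lower in arterial than in capillary cells (22.4% and 22.4% of all genes). Hey2 and Hey1, Notch targets of arteries, led with log2 3.59 ± 0.22 and 2.02 ± 0.09. Hey1 is also among the leading genes of the arterial-side cluster. In venous cells 8 rose and 9 fell (25.1% and 25.2% of all genes), Hey1 by log2 -4.17 ± 0.19. In Plvap-positive cells 5 rose and 11 fell (26% and 28% of all genes), with Tbx1 (log2 -5.82 ± 0.22) and Lef1, a Wnt effector (-5.66 ± 0.13), among those that fell. Against arterial cells, smooth muscle had 2 higher and 17 lower (30.3% and 32.1% of all genes). The family counts that follow stand beside the same shares of all genes.

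Members' families had other patterns. Of 4 other SOX genes tested, Sox13 rose in arterial cells (log2 1.30 ± 0.10) and Sox9 fell (-2.77 ± 0.24), and Sox12 rose in venous cells (2.24 ± 0.12). Sox5 and Sox6 were high in smooth muscle (log2 6.35 ± 0.25 and 4.45 ± 0.21 against arterial cells). Among 12 other ETS genes, 1 rose and 2 fell in arterial cells, Ets1 among them (-0.66 ± 0.08). Ets1 fell in venous cells as well (-1.38 ± 0.08), where Fli1 rose. Among 13 other forkhead genes, 2 rose and 6 fell in arterial cells, and Foxf1 was higher in venous (1.10 ± 0.09) and lower in arterial cells (-1.43 ± 0.14). Foxd1 and Foxs1 led the forkhead genes in pericytes, with differences from capillary cells of 8.45 ± 0.22 and 7.66 ± 0.25. Of 21 other nuclear receptors tested, 10 rose and 4 fell in venous cells. Nr2f1, the closest relative of Nr2f2, averaged 0.384 CPM in capillary cells and 55.7 CPM in pericytes (log2 7.02 ± 0.29). Of 19 mural transcription factors, 11 were tested in smooth muscle against arterial cells and all 11 rose, where 30.3% of all genes did. In pericytes against capillary cells 8 of 11 tested rose and 1 fell (14.1% and 13.1% of all genes). Only 6 of the 19 passed the low-count filter in the endothelial fit. Genes that passed through their mural counts alone were bound to be higher there, so these counts are no test of the list.

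Genes that these factors are known to control also differed between segments, 6 of 15 higher and 6 lower in arterial than in capillary cells (22.4% and 22.4% of all genes). Efnb2, an arterial ephrin, was higher (log2 1.56 ± 0.10), and Nrp2, a venous and lymphatic receptor, lower (-1.98 ± 0.16). From artery to vein Nrp2 rose by 5.03 ± 0.14, and Efnb2 and the Notch ligand Dll4 fell (log2 -3.22 ± 0.13 and -3.21 ± 0.14). In Plvap-positive cells 13 of 15 rose and 1 fell (26% and 28% of all genes), including Nrp1 (log2 2.90 ± 0.10) and the VEGF receptor Kdr (2.22 ± 0.11). Between ages, Sox4 of the SOX list was lower at 12 months in capillary (-1.40 ± 0.17, adjusted p = 0.00056) and venous-side cells (-3.00 ± 0.24, adjusted p = 9.7e-06).

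Likeness was measured as Pearson's r of log2(CPM + 1) over 56 sums, 8 classes in each of 7 libraries, among 8480 genes. These sums share libraries and the pericyte ones hold endothelial RNA, so r describes the tables only. The lists also depend on the pseudocount: with log2(CPM + 5), Sox18, Erg and Foxq1 had the same 3 genes, Sox17, Foxf2, Foxc1 and Nr2f2 shared 2 and Sox7 and Fli1 shared 1. The 3 genes most like Sox17 were Mecom (0.94), Aqp11 (0.92) and Srarp (0.92), and those most like Sox18 were Egfl7 (0.94), S100a13 (0.94) and Bvht (0.93). For Sox7 they were Zfp366, Rnf125 and Apobec3 (0.95, 0.95 and 0.94), for Erg She, Adgrf5 and Ptprb (0.98 each), and for Fli1 Add3, Foxl2 and Adcy4 (0.96, 0.96 and 0.95). For Foxq1 they were Ocln, Slc2a1 and Cldn5 (0.98 each), which encode a tight junction protein, the glucose transporter GLUT1 and another tight junction protein. For Foxf2 they were Ablim1, Slc6a6 and Map3k1 (0.93, 0.92 and 0.90), for Foxc1 Zic5, Pgm5 and Fyco1 (0.92, 0.90 and 0.90) and for Nr2f2 Mark1, Phlda1 and Pard6g (0.86, 0.85 and 0.82). Ptprb and Cldn5 are also naming markers. Among the 36 pairs of members over the 42 endothelial sums, Foxq1 and Foxc1 were most alike (r = 0.93), then Sox17 and Foxq1 (0.87) and Fli1 and Nr2f2 (0.85), and Sox18 and Fli1 least (-0.59). The 42 sums include Plvap-positive cells, where Foxq1, Foxc1 and Sox17 were all far lower, and r was not computed without them. Against capillary cells, venous cells were lower in Foxq1 (log2 -0.53) and higher in Foxc1 (log2 0.36). Arterial cells were called higher in Sox17 but not in Foxq1.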

How the data were processed

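Per the file headers and labels, the authors deposited unnormalised UMI counts, 1 matrix per library. Per the submitters' processing notes they came from Cell Ranger on mm10, and Seurat was also named. The file headers give version 4.0.0 at 12 months and 6.1.1 at 3 months. The counts of 32285 shared genes were used as deposited. Barcodes with at least 500 genes and at most 15% mitochondrial UMIs were kept, and Scrublet (in scanpy 1.11.5) removed the top 0.8% of doublet scores per 1000 barcodes. Seurat 5.3.0 integrated the libraries (2000 variable features, 30 components, resolution 0.5). The variable features did not include the members, the lists or the naming markers. Names came from markers. Naming thresholds were set after the marker scores were seen. Capillary clusters 0, 1 and 2 could not be split by markers and served together as the reference, and the venous-side and arterial-side clusters were tested apart rather than with all capillary cells in the age comparison.

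Counts were summed per library and class (at least 20 cells) and edgeR 4.0.16 tested them by quasi-likelihood after filterByExpr and TMM scaling (Benjamini-Hochberg over all genes, adjusted p under 0.05), with the library and class as terms between classes and age within a class. Tests were tried on simulated data. DESeq2 1.42.0 and other filters, thresholds and clusterings were alternatives. Besides the 9 members, up to 4 called genes of each of 7 lists were named per comparison by size of change (at least 10 CPM in the higher group), and the 3 most alike genes per member. The members and lists were chosen with earlier results of these data known.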

Additional observations from a re-analysis of the deposited data

Results flagged for a closer look

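In 7 of 72 groups of 4 libraries checked, 1 library lay far from the other 3, and it was the 3-month replicate 1 each time. Chance gives about 1 in 20 independent groups, but these groups share the same 4 libraries, so the count cannot be set against chance. It was low for Fli1 in pericytes (129.9 CPM, the others 262.7 to 276.8), for Foxq1 in pericytes (285.7 CPM, the others 513.5 to 552.2) and for Foxq1 in venous cells (280.3 CPM, the others 418.9 to 436.1). It was high for Sox17 in Plvap-positive cells (141.0 CPM, the others 37.5 to 46.6), in arterial-side cells (608.8 CPM, the others 322.1 to 370.6) and in venous cells (363.6 CPM, the others 201.0 to 223.1). Sox18 in arterial cells was high as well (824.4 CPM, the others 472.5 to 515.5).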

How the results depend on the processing

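Of 188 member values tested, 75 were called, and 63 of those were called in each run that left out a library and 41 in each other setting. Without the library term, members higher or lower fell to 1 and 2 (arterial), 0 and 1 (arterial-side), 2 and 0 (venous-side against capillary), and 1 and 3 (pericytes against capillary), 1 and 1 (venous against venous-side), 0 higher (arterial against arterial-side), and 1 (venous), 5 (Plvap-positive) and 3 (venous against arterial) lower. Thinning all sums to the smallest left 2 (arterial), 1 (arterial-side), 4 (Plvap-positive) and 3 (venous against arterial) lower, 1 and 1 for venous against venous-side, 0 and 1 for pericytes against capillary and 1 higher for pericytes against smooth muscle. Thinning reversed Erg in venous (0.26) and Plvap-positive (0.083) against capillary cells, in venous against venous-side (0.19) and arterial cells (0.19), and Sox7 in venous against venous-side cells (-0.086). Without integration Foxc1 was reversed in arterial cells (0.0078). The cause of these changes was not tested. Counts in this section stand without the shares of all genes called under each setting, so they show nothing particular to the members.

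At resolution 1.0 arterial against arterial-side gave 2 and 1, venous-side 2 lower, venous against venous-side 2 higher and pericytes against capillary 1 higher. Without integration venous against venous-side gave 2 higher and venous against arterial 3 lower, 1 member was called between ages in capillary cells, and the age difference in venous cells gave 1 and 1. With no filter, counts were 2 higher (venous against venous-side), 1 higher (pericytes against capillary) and 2 lower (pericytes against smooth muscle), and between ages 1 in venous-side, 1 in venous and 2 in smooth muscle. DESeq2 gave 2 lower (pericytes against smooth muscle), 1 between ages in venous-side cells and 1 lower for the arterial age difference. With at least 1000 genes per cell, 1 age call appeared in capillary and 1 in smooth muscle cells. Removing more doublets or requiring 50 cells left 1 higher in pericytes, and the latter gave 1 age call there. In mural cells low in endothelial markers, an added setting, pericytes gave 1 higher against capillary and 1 and 0 against smooth muscle, and without endothelial cluster 1, also added, venous-side cells gave 2 lower.

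Leaving out a library in turn moved members higher in pericytes against capillary from 1 to 2, in venous against venous-side from 2 to 4 and lower in arterial cells from 2 to 4. Counts of members moved in other comparisons too, by the lost and gained calls named above. In pericytes against capillary cells, Fli1 was called lower without the 12-month replicate 1 or the 3-month replicate 3 or 4 (adjusted p from 0.026 to 0.046). Foxf2 was called lower there without the 12-month replicate 1 (adjusted p = 0.035). Age calls ranged from 0 to 1 in capillary, arterial-side, venous-side and venous cells, pericytes and both age differences, and from 0 to 2 in smooth muscle. The libraries share replicate numbers only by label: same-numbered deviations correlated at -0.008, 0.208 and -0.069 in capillary, 0.143, 0.189 and 0.044 in arterial and 0.093, 0.169 and 0.014 in venous cells (best with the own number in 1, 3 and 2 of 3), so not every pair was over 0.1 and the numbers were not taken as pairs. With a replicate block, 0 members were called between ages, as without it. Depth limits the low levels, Foxq1 in Plvap-positive and Nr2f2 in arterial cells.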
